A study of Mus musculus with 14 samples.

Results

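Of the 48794 genes in the deposited count and TPM tables (TPM, a length-corrected level that sums to the same total in every library), 9 belong to the set described here, which covers the complement cascade and its receptors in mouse liver. They were found by matching Ensembl identifiers to gene symbols, and all 9 were matched. C3, Hc, C9, Cfb and Masp1 encode proteins that the liver secretes into plasma. Cfp, C3ar1, C5ar1 and Cr2 encode properdin and receptors that leukocytes carry. A further 44 complement genes, grouped by role, were used as the surrounding pathway.

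The libraries came from wild-type (WT) mice with no treatment, and the age and strain of the animals are not given in the sources used here. CD45+ leukocytes, cells with the surface phosphatase of nucleated blood cells, had been taken from liver needle biopsies by fluorescence-activated sorting. There were 3 libraries for each input of 2500, 5000, 10000 and 20000 sorted cells, and 2 libraries of bulk liver tissue served as the control. The same low-input cDNA chemistry with tagmentation was used for both kinds of sample. Since separate animals are not named for the libraries of a group, the p-values reflect the spread among these libraries alone, and that spread may be technical.

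Total counts per library ranged from 6723357 to 14496314 in the sorted samples, and were 7605290 and 8034138 in bulk liver. The summed level of 3 general leukocyte markers (Ptprc, Coro1a and Cd53) lay between 3834 and 4448 TPM in sorted cells, against 12.7 and 16.6 TPM in bulk liver. The summed level of 14 hepatocyte markers lay between 125 and 193 TPM in sorted cells, against 42008 and 42920 TPM in bulk liver. Both kinds of sample therefore matched their labels, with a small remainder of hepatocyte transcripts in every sorted library.

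Complement is a cascade of plasma proteases and binding proteins that tags microbes and damaged cells. The classical pathway starts from antibody through C1q, the lectin pathway from sugars through mannose-binding lectins, ficolins and their serine proteases, and the alternative pathway from spontaneous turnover of C3 that factor B amplifies and properdin stabilises. All routes cleave C3 and then C5, the small fragments C3a and C5a act on receptors of myeloid cells, and the terminal components build a membrane pore that ends in C9. Hepatocytes are the main source of most circulating components, while properdin comes largely from leukocytes and complement receptor 2 is a hallmark of B cells.

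Sorted cells held more transcript of 3 leukocyte genes and less of all 5 liver-made factors than bulk liver. Of the 9 genes, Cfp, C5ar1 and Cr2 were higher in sorted cells, C3, Hc, C9, Cfb and Masp1 were lower, and C3ar1 did not pass the test (edgeR quasi-likelihood test, Benjamini-Hochberg adjusted over all genes tested). All 9 genes passed the filter on low counts, which a gene can pass through 1 kind of sample alone. Cfb, with 0 to 8 counts per sorted library, passed only through bulk liver. Cr2, with 5 and 6 counts in bulk liver, passed only through the sorted cells. The calls of Cfb and Cr2 are thus not independent of the filter. Among the 16294 genes tested in the same fit, 6806, or 41.8%, were higher and 6273, or 38.5%, were lower, so that a call in either direction was common. Gaps between the groups in TPM are given gene by gene below, and were not counted over all genes. Such gaps also occurred for C3ar1 and for the other complement genes C1qa and Vsig4, whose direction depends on the scaling. The median log2 fold change was -5.79 over the 9 genes, -7.34 over the 5 liver-made factors and 2.02 over the 4 leukocyte genes, beside 0.17 over all genes. In bulk tissue, fewer cells of a type and less RNA per cell cannot be told apart.

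These fold changes depend on how libraries are put on a common scale. They use TMM factors (trimmed mean of M values), and scaling by library totals alone moved the median over all genes to 1.37 and each of the 9 genes upward by a like amount. The deposited TPM have no TMM factor, so that a fold read from TPM runs higher than the fitted fold. Under totals alone 74.6% of all calls were upward, against 52.0% with TMM factors. The same 8 of the 9 genes kept their call and direction under totals alone and on the TPM scale.

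**Figure D1:**
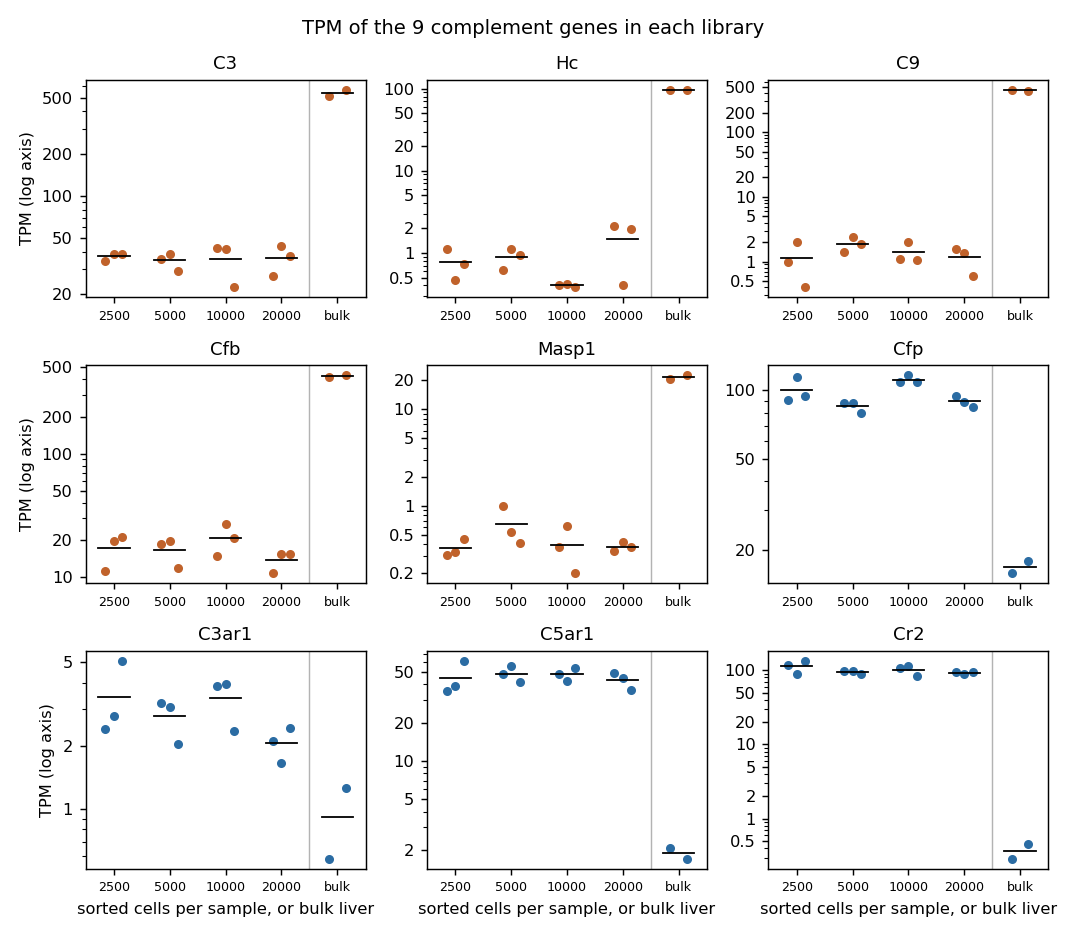
TPM (log axis) of the 9 genes in each of the 12 sorted libraries, by number of cells, and in the 2 bulk liver libraries. Points are libraries, black lines are group means, orange marks the liver-made factors and blue the leukocyte genes. In every panel the sorted and bulk libraries lie apart in TPM, though C3ar1 overlaps on the TMM scale. Such gaps were not counted over all genes, of which 80.3% were called in either direction in the fit. The 4 numbers of cells overlap in most panels.

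C3, the central component that all pathways cleave, lies on chromosome 17 from 57203970 to 57228136 (ENSMUSG00000024164, minus strand; build GRCm38, as for all coordinates here). It had a lowest, median and highest level of 22.4, 38.2 and 44.4 TPM in the sorted libraries, against 513 and 570 TPM in the bulk liver libraries. The sorted libraries all lay far below both bulk libraries, yet C3 was still the most abundant liver-made factor among the sorted cells. The fit gave a log2 fold change of -5.81 (SE 0.11; adjusted p = 2.19e-15).

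Hc encodes C5, from which the anaphylatoxin C5a is cut (ENSMUSG00000026874, chromosome 2, 34983331 to 35061438, minus strand). Its lowest, median and highest level was 0.38, 0.675 and 2.1 TPM in sorted cells, against 97.3 and 97.1 TPM in bulk liver. The groups did not overlap, and the log2 fold change was -9.03 (SE 0.09; adjusted p = 1.36e-24). C9, the subunit that polymerises into the pore (ENSMUSG00000022149, chromosome 15, 6445327 to 6498751, plus strand), was the second most abundant of the 9 genes in bulk liver. C9 had a lowest, median and highest level of 0.4, 1.37 and 2.35 TPM in sorted cells, against 452 and 435 TPM in bulk liver. Every sorted library lay below both bulk libraries, and the log2 fold change of -9.90 (SE 0.12; adjusted p = 1.04e-19) was the lowest among the 9 genes.

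Masp1 encodes serine proteases of the lectin pathway (ENSMUSG00000022887, chromosome 16, 23449417 to 23520815, minus strand). It was the least abundant liver-made factor, with a lowest, median and highest level of 0.2, 0.39 and 1.0 TPM in sorted cells, against 20.8 and 22.5 TPM in bulk liver. The groups did not overlap, and the log2 fold change was -7.34 (SE 0.17; adjusted p = 1.19e-18).

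Cfb encodes factor B, the protease of the alternative pathway convertase (ENSMUSG00000090231, chromosome 17, 34856374 to 34862518, minus strand). Its lowest, median and highest level was 10.9, 17.0 and 27.1 TPM in sorted cells, against 415 and 431 TPM in bulk liver. All sorted libraries lay below both bulk libraries. The deposited counts hold little of this signal, with 0 to 8 counts per sorted library (0 in 3 of them) against 48 and 56 counts in bulk liver. The log2 fold change from these counts was -5.79 (SE 0.55; adjusted p = 9.41e-09).

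The 2 deposited measures of Cfb thus differ, and the annotation holds an overlap at this gene. In GENCODE M21, 79.5% of the exon bases of Cfb are shared on the same strand with the readthrough gene Gm20547 (chromosome 17, 34856412 to 34882042, minus strand), which has 0 counts in every library. Whether this overlap sets the low counts was not tested. The ratio of counts per exon length to TPM, set to 1 for the median gene, was 0.0143 for Cfb in sorted cells and 0.0105 in bulk liver. A ratio under 0.1 was found for 5.68% of genes in sorted cells and for 5.21% in bulk liver. The neighbouring C2, the classical pathway counterpart of factor B, shares 42.8% of its exon bases on the same strand with Gm20547 and had a ratio of 0.330 in sorted cells and 0.405 in bulk liver. Levels of Cfb are therefore given in TPM, and its fold change from counts rests on few reads.

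**Figure D2:**
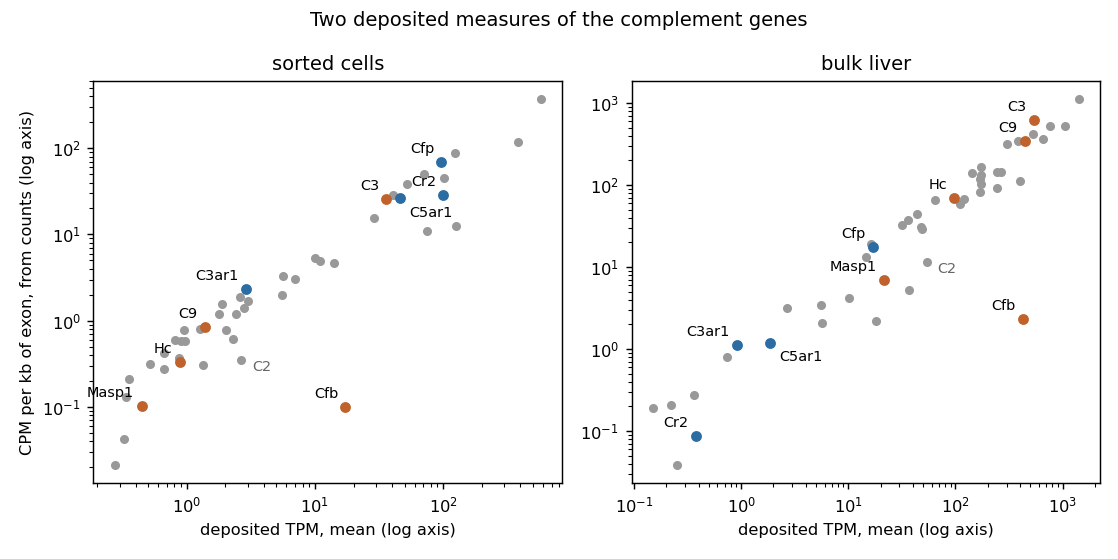
CPM (counts scaled to library size) per kilobase of exon (log axis) against deposited TPM (log axis), as means over the 12 sorted libraries (left) and the 2 bulk liver libraries (right), for the complement genes. Orange points are liver-made factors, blue points leukocyte genes and grey points other complement genes. Cfb lies far below the other genes in both panels, and C2 is labelled as its neighbour on the chromosome.

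The 5 liver-made factors kept different shares of their bulk level in the sorted cells. C3 kept 6.65 ± 1.23% of its mean bulk TPM (SD, n = 12), Cfb 4.08 ± 1.14%, Masp1 2.06 ± 0.943%, Hc 0.911 ± 0.617% and C9 0.313 ± 0.135%. The hepatocyte markers kept 0.116% (Cps1) to 2.85% (Ass1), with a median of 0.301% and a value of 0.335 ± 0.0583% for Alb, which encodes albumin. C9 thus stood at the level of the typical hepatocyte marker, while C3 and Cfb lay above all 14 of them.

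This contrast was tested per library, as log2(CPM + 0.5) of the gene minus the mean of the same value over the 14 hepatocyte markers. CPM in this contrast are counts scaled to library totals, without TMM factors. In sorted cells against bulk liver, C3 averaged 4.13 ± 0.330 (SD, n = 12) and 0.17 ± 0.0911 (SD, n = 2) on this log2 scale, a difference of 3.96 or 15.6-fold. Masp1 averaged -2.37 ± 0.476 in sorted cells and -5.37 ± 0.0625 in bulk liver, a difference of 3.00 or 8.02-fold. It had 4 to 21 counts per sorted library, and this size was 2.71 with 0.1 CPM added and 3.32 with TPM. For C3 and Masp1 the exact permutation p was 0.0220 (two-sided, n = 12 and 2), the smallest that this design allows. For both genes each of the 12 sorted libraries exceeded both bulk libraries. The contrast was not run over all genes. Any gene less reduced in sorted cells than the mean of these markers differs upward here. Alb had a fitted log2 fold change of -9.97, beside the median of 0.17 over all genes. Such a difference is therefore not particular to C3 and Masp1.

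Cfb differed by 5.29 on this scale, with the same exact p of 0.0220, but its counts are near 0 and the size changes with the pseudocount, to 4.19 with 0.1 CPM and 3.27 with TPM. Hc differed by 1.05 or 2.07-fold, with 11 of 12 sorted libraries above both bulk libraries and an exact permutation p of 0.0659. With TPM in place of CPM that difference was 1.65 and passed the threshold of 0.05, as it did at 1.15 without replicate 3 at 2500 cells. C9 differed by 0.09 or 1.06-fold, with 7 of 12 sorted libraries above both bulk libraries (exact permutation p = 0.703). These 5 genes were the ones tested in this way. With 1 bulk library left out the smallest possible p is 0.154, so no call could be made there, while the difference for C3 stayed between 3.897 and 4.03.

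Markers of other liver cells were measured beside these shares. The 6 markers of stellate cells and fibroblasts kept 5.37% to 24.5% of their bulk TPM (median 10.4%), and the 5 markers of sinusoidal endothelium kept 22.3% to 81.6% (median 48.1%). The summed stellate cell and fibroblast level was 4.66 to 7.87 TPM in sorted cells, against 72.9 and 83.05 TPM in bulk liver, with all 6 markers lower in the fit. Col1a1, Col1a2 and Lrat were at 0 TPM in at least 1 sorted library, and no marker was at 0 in all of them. The summed sinusoidal level was 25.3 to 53.7 TPM in sorted cells, against 73.2 and 81.1 TPM in bulk liver. All 5 sinusoidal markers were lower, beside 38.5% of all genes. Which cells, these or any others in the sorted samples, hold the remaining C3, Cfb and Masp1 was not tested.

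**Figure D3:**
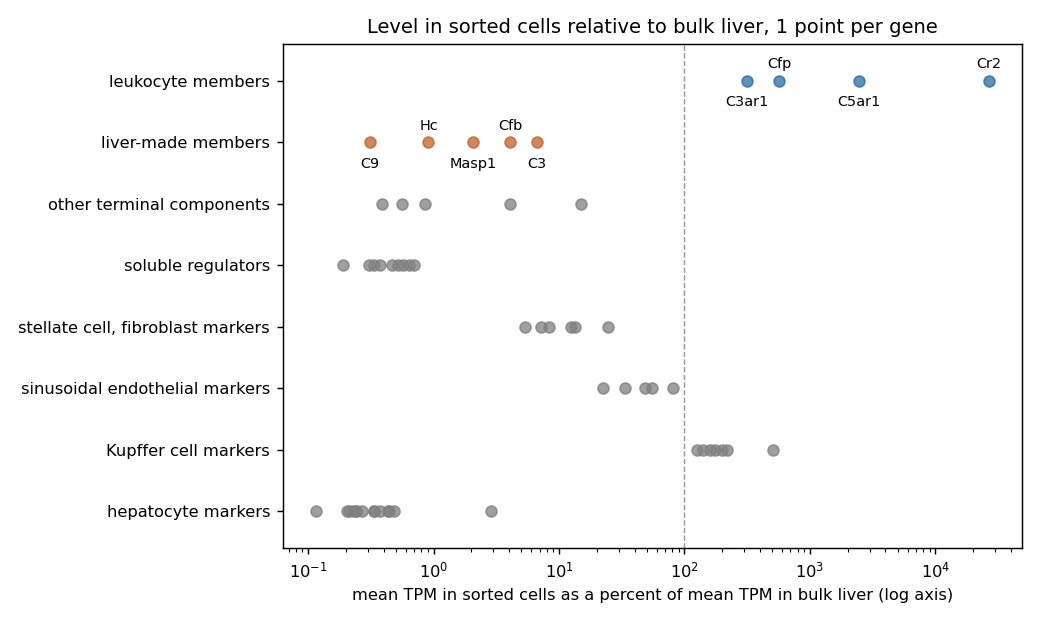
Mean TPM in the 12 sorted libraries as a percent of the mean over the 2 bulk liver libraries (log axis), with 1 point per gene (1 soluble regulator not drawn) and the dashed line at equal levels. C9 (0.313%) lies among the hepatocyte markers, C3 (6.65%) lies near the lowest stellate cell and fibroblast markers, and Cr2 reaches 26670%.

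Promoter sequence was taken for the genes of the set. For 7 of the 9 genes RefSeq (GRCm38.p6) gave a promoter of 250 bases before and 50 bases after the annotated start, and Cfb and Masp1 had no entry. C3 and C9 are shown because they are the liver-made genes that kept the most and the least of their bulk level, with motif matches in capitals, 5′ to 3′ on the strand of the gene.
C3 (chr17:57228087-57228386, minus strand): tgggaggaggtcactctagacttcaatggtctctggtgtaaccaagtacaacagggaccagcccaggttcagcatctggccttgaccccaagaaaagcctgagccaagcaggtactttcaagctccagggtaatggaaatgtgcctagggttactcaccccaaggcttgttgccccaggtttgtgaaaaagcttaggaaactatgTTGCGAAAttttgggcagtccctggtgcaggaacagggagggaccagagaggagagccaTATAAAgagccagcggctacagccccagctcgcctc
C9 (chr15:6445096-6445395, plus strand): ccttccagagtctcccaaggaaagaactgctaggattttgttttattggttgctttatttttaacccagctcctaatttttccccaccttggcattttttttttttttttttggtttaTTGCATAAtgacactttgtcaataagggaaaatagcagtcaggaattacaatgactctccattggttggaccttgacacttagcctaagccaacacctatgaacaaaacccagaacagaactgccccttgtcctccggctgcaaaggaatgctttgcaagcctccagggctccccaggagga
The motifs searched on both strands were TATAAA (bound by TBP), TTGCNNAA (C/EBP), GTTAAT (part of an HNF1 site), CAAAGTCCA (HNF4), GAGGAA (PU.1) and CCCNNGGGA (EBF), and no matches overlapped. The C/EBP motif lay from -45 to -38 in C3 and from -132 to -125 in C9, counted from the start. It was held by 10.8% of 32851 promoters of the same length. C3 also held TATAAA, at bases 15 to 20 after the start, a motif found in 13.6% of promoters, and Hc held TATAAA from -239 to -234 and GTTAAT (7.10% of promoters) from -74 to -69. A match is a run of letters and not a measured binding site.

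Cr2 encodes complement receptors 2 and 1 in the mouse, which bind C3 fragments on B cells (ENSMUSG00000026616, chromosome 1, 195136811 to 195176716, minus strand). Its lowest, median and highest level was 83.7, 95.5 and 132 TPM in sorted cells, against 0.29 and 0.46 TPM in bulk liver, where it had 5 and 6 counts. The groups were far apart, and Cr2 was the most abundant of the 9 genes in sorted cells and the least abundant in bulk liver. The log2 fold change was 7.14 (SE 0.19; adjusted p = 6.06e-18). All 7 B cell markers were also higher, beside 41.8% of all genes. Their summed level was 3798 to 4453 TPM in sorted cells, against 5.29 and 7.39 TPM in bulk liver. Cd79a and Cd79b, which encode the signalling chains of the B cell receptor, had log2 fold changes of 8.09 and 7.89.

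C5ar1 encodes the main receptor for C5a, found on neutrophils, monocytes and macrophages (ENSMUSG00000049130, chromosome 7, 16246743 to 16259540, minus strand). It had a lowest, median and highest level of 35.8, 46.4 and 61.1 TPM in sorted cells, against 2.05 and 1.70 TPM in bulk liver. The groups did not overlap, and the log2 fold change was 3.27 (SE 0.26; adjusted p = 1.53e-09). Cfp encodes properdin, which stabilises the alternative pathway convertase (ENSMUSG00000001128, chromosome X, 20925454 to 20931555, minus strand). Its lowest, median and highest level was 79.4, 92.9 and 116 TPM in sorted cells, against 15.9 and 17.9 TPM in bulk liver. Again the groups did not overlap, and the log2 fold change was 0.76 (SE 0.10; adjusted p = 8.74e-07), rising to 1.97 with library totals alone.

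C3ar1 encodes the receptor for C3a (ENSMUSG00000040552, chromosome 6, 122847138 to 122856161, minus strand). Its lowest, median and highest level was 1.66, 2.6 and 5.07 TPM in sorted cells, against 0.58 and 1.26 TPM in bulk liver, with 25 and 50 counts in the bulk libraries. In TPM no sorted library reached down to the bulk libraries, but on the TMM scale the groups overlapped and the log2 fold change was -0.15 (SE 0.31; adjusted p = 0.675). With library totals alone it was 1.06 (adjusted p = 0.00455), and on log2(TPM + 1) it was 1.01 (adjusted p = 0.00104, limma), so its direction depends on the scaling.

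Markers of the myeloid cells known to carry these receptors were measured beside them. The 7 monocyte markers summed to between 11871 and 13731 TPM in sorted cells, against 131 and 142 TPM in bulk liver. All 7 were higher, beside 41.8% higher and 38.5% lower over all genes. The 7 neutrophil markers summed to between 1912 and 4154 TPM in sorted cells, against 4.68 and 4.79 TPM in bulk liver, where Ly6g was at 0, and 6 of them were higher. The 7 Kupffer cell markers summed to between 213 and 395 TPM in sorted cells, against 132 and 173 TPM in bulk liver. On the TMM scale 1 Kupffer marker was higher and 6 were lower, although all 7 lay between 127% and 509% of their bulk level in TPM. How far each cell type accounts for the level of C5ar1, Cfp or C3ar1 was not tested.

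The promoters of Cr2 and Cfp are shown as the leukocyte genes with the highest levels in sorted cells, in the same form as above.
Cr2 (chr1:195176670-195176969, minus strand): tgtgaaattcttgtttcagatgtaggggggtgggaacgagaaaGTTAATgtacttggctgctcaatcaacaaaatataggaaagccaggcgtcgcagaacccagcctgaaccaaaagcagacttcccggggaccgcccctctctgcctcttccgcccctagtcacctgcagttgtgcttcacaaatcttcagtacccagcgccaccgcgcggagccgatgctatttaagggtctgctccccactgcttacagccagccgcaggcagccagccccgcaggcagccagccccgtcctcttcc
Cfp (chrX:20931506-20931805, minus strand): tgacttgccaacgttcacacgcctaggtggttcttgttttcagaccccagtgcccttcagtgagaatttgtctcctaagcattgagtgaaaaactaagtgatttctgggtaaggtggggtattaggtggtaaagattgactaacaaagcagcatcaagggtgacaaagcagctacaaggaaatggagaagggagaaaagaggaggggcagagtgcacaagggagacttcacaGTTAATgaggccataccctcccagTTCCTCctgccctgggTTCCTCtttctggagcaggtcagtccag
Cfp held GAGGAA, the PU.1 motif, at bases 7 to 12 and 23 to 28 after the start on the opposite strand, and GTTAAT from -18 to -13. The PU.1 motif was held by 28.3% of promoters. In Cr2 the capitals mark GTTAAT from -207 to -202, and the EBF motif, held by 6.56% of promoters, did not occur in this window. C3ar1 held TATAAA from -235 to -230, and C5ar1 held none of the 6 motifs.

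The balance within the set turned over between the 2 kinds of sample. The 5 liver-made factors summed to 56.0 ± 9.20 TPM in sorted cells (SD, n = 12) and 1527 ± 40.8 TPM in bulk liver (SD, n = 2). The 4 leukocyte genes summed to 246 ± 23.6 TPM in sorted cells and 20.05 ± 1.74 TPM in bulk liver. The leukocyte sum was 4.48 ± 0.708 times the liver-made sum in sorted cells (3.61 to 5.76 over the libraries). In bulk liver the liver-made sum was 76.3 ± 4.59 times the leukocyte sum.

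By mean TPM the order in sorted cells was Cr2, Cfp, C5ar1, C3, Cfb, C3ar1, C9, Hc and Masp1. In that order the next gene reached the one before it in at least 1 library for Cr2 and Cfp, C5ar1 and C3, C9 and Hc, and Hc and Masp1, comparing the genes within each library. In bulk liver the order was C3, C9, Cfb, Hc, Masp1, Cfp, C5ar1, C3ar1 and Cr2, and no gene reached its neighbour in either library. C3 thus came near a leukocyte receptor in the sorted cells, at 36.02 ± 6.68 TPM against 46.4 ± 7.83 TPM for C5ar1 there.

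The rest of the pathway was dominated by genes that were lower in sorted cells. Of the 44 other complement genes, 38 were tested, and 4 were higher, 31 were lower and 3 did not pass, with a median log2 fold change of -6.60 beside 0.17 over all genes. Over all genes in this fit, 41.8% were higher and 38.5% were lower. The number of other complement genes higher was 9 with library totals and 12 on log2(TPM + 1). Higher calls over all genes also rose, from 6806 to 10737 and 11373 in these settings. The 6 that were too low to test were C1rb, C1s2, Fcnb, Cfd, C7 and Cd55b. Cfd, which encodes factor D of the alternative pathway, averaged 0.0325 TPM in sorted cells and 0.220 TPM in bulk liver.

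All 8 tested genes of classical initiation were lower, with a median of -6.53, beside 38.5% lower over all genes. C4b, which encodes the C4 that C1s cleaves, was at 6.98 ± 3.03 TPM in sorted cells and 242 ± 23.6 TPM in bulk liver (log2 fold change -6.81; it has a near-identical copy, C4a, so reads may be split between them). C1s1, which encodes the protease C1s, had a log2 fold change of -9.54. The C1q chains stood apart, with C1qb at 124 ± 26.9 TPM in sorted cells and 63.9 ± 10.1 TPM in bulk liver. That difference was -0.81 as a log2 fold change on the TMM scale but 0.39 with library totals and 0.92 on log2(TPM + 1). C1qa and C1qc turned their direction in the same way, though C1qa was not called with totals. C1q is made by macrophages, and C1qb kept 194% of its bulk TPM beside a median of 174% over the Kupffer cell markers.

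The lectin pathway genes were lower in 6 of 6 tested, with a median of -6.18, beside 38.5% lower over all genes. Mbl2, a mannose-binding lectin, had a log2 fold change of -10.29, and Masp2, the protease that cleaves C4 and C2, had one of -7.07 (54.9% of the exon bases of Masp2 are shared with Tardbp on the opposite strand). Fcna, which encodes ficolin A, a macrophage ficolin, was at 52.6 ± 10.5 TPM in sorted cells and 35.98 ± 3.15 TPM in bulk liver, and the log2 fold change was -1.19 with TMM factors but 0.019 with totals and 0.51 on log2(TPM + 1).

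Terminal components were lower in 4 of 4 tested, with a median of -8.75, beside the -9.90 of C9. C8g and C8a, chains of C8, had log2 fold changes of -7.99 and -9.52. C6, the component that joins C5b, had the smallest difference of the group at -6.09, and kept 4.05 ± 0.883% of its bulk TPM. Soluble regulators were lower in 10 of 10, with a median of -9.33. Vtn (vitronectin), Clu (clusterin) and Cfhr2 had log2 fold changes of -8.96, -9.26 and -9.77.

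Membrane regulators, which protect host cells, were 1 higher, 2 lower and 2 not passed, beside 41.8% higher and 38.5% lower over all genes. Cd55, which speeds the decay of convertases, was at 385 ± 24.2 TPM in sorted cells and 10.2 ± 0.141 TPM in bulk liver (log2 fold change 3.60, adjusted p = 2.84e-19). Cd59a, which blocks C9 insertion, was lower with a log2 fold change of -5.83. Cr1l, the gene of the rodent regulator Crry, had a log2 fold change of 0.06 (adjusted p = 0.478) but one of 1.73 on log2(TPM + 1), at 125 ± 6.77 TPM in sorted cells and 36.8 ± 1.54 TPM in bulk liver.

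Among the other receptors, 3 were higher, 1 was lower and 1 did not pass, beside 41.8% higher and 38.5% lower over all genes. Itgb2, the shared beta chain of complement receptors 3 and 4, was at 578 ± 42.8 TPM in sorted cells and 5.59 ± 3.88 TPM in bulk liver, with a log2 fold change of 5.55. Itgax, the alpha chain of complement receptor 4, had 2 counts over both bulk libraries. Its ratio of counts per TMM-scaled library size was 253 (95% exact interval of counting error 70.0 to 2089). Itgam, the alpha chain of complement receptor 3, had 3 counts in bulk liver and a ratio of 124 (42.3 to 600.0), and 68.7% of its exon bases are shared on the same strand with Gm49368. Vsig4, the Kupffer cell receptor for C3b, was at 40.6 ± 5.46 TPM in sorted cells and 32.0 ± 0.962 TPM in bulk liver, with a log2 fold change of -1.40 with TMM factors but 0.32 on log2(TPM + 1).

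**Figure D4:**
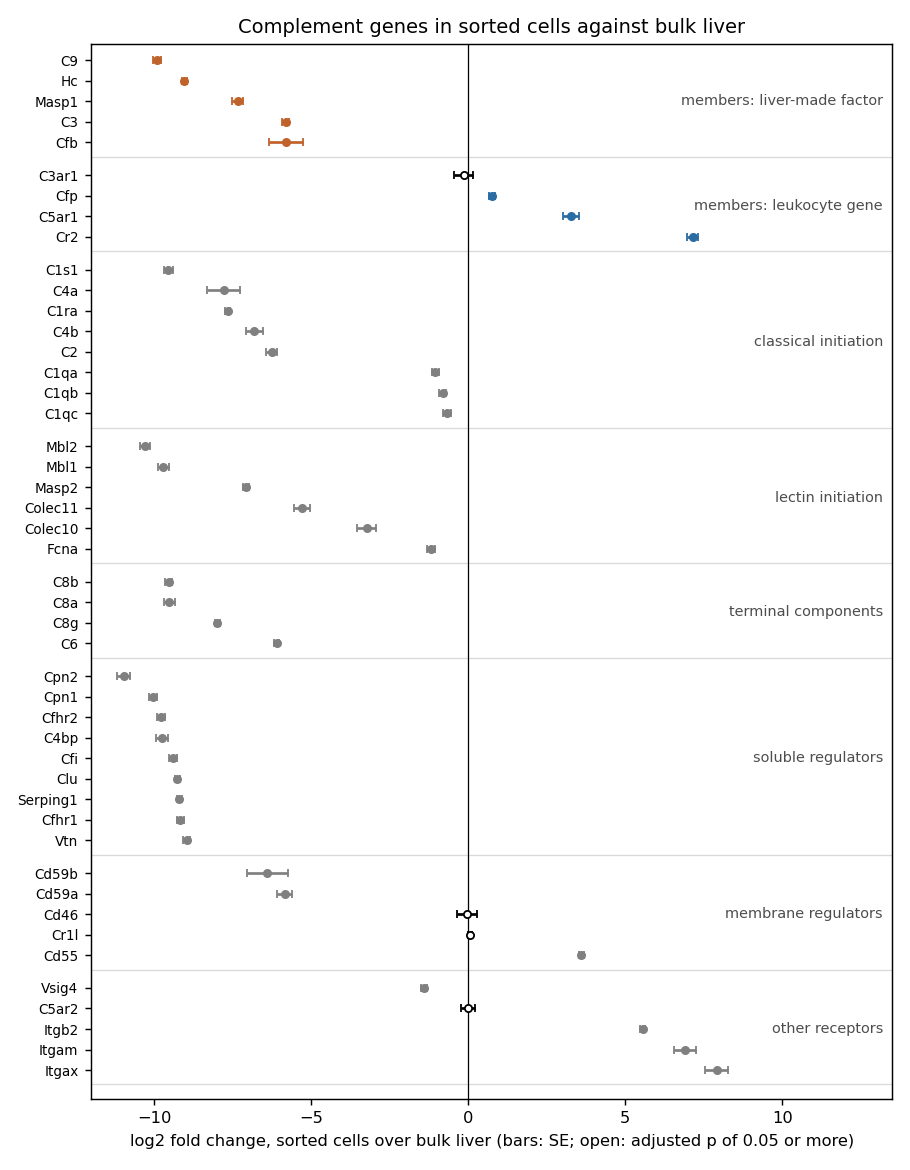
Log2 fold change of sorted cells over bulk liver, with SE, for the 9 genes (orange and blue) and the other complement genes tested (grey, 1 not drawn), grouped by role. Open circles mark genes with an adjusted p of 0.05 or more. The values farthest to the left belong to soluble regulators, Mbl2 (-10.29) and C9 (-9.90), and the right side is held by Cr2, C5ar1, Cfp, Cd55, Itgb2, Itgam and Itgax.

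The second comparison asked whether the number of sorted cells changes what is measured. Of the 9 genes 7 were tested in the fit of the 12 sorted libraries, since Cfb and Masp1 were too low in counts. None of the 7 was called for the slope on the log2 number of cells, for any difference among the 4 numbers, or for 2500, 5000 or 10000 cells against 20000 cells (edgeR quasi-likelihood test), and limma-voom and DESeq2 called 0 as well. Calls were rare among all 14795 genes, at 0.0811% for the slope, 0.297% for any difference, and 0.419%, 0.0879% and 0.304% for the 3 single contrasts. At an unadjusted p under 0.05 the 7 genes gave 1, 3, 2, 0 and 1 in these 5 tests, beside 10.7%, 10.8%, 13.3%, 8.13% and 10.2% of all genes.

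The means by number of cells are given from 2500 to 20000 cells, each over 3 libraries. C3 averaged 37.3 ± 2.49, 34.8 ± 4.83, 35.7 ± 11.5 and 36.3 ± 8.83 TPM (SD), and its slope per doubling of cells was 0.00 (SE 0.05). Cr2 averaged 113 ± 21.4, 93.9 ± 4.29, 101 ± 15.4 and 92.4 ± 3.73 TPM, with a slope of -0.07 (SE 0.02; unadjusted p = 0.0136, adjusted p = 0.316, edgeR). At 2500 cells Cr2 was 0.24 higher on the log2 scale than at 20000 cells (SE 0.08; unadjusted p = 0.00577, adjusted p = 0.167).

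Cfp averaged 99.9 ± 12.4, 85.1 ± 4.89, 111 ± 4.23 and 89.4 ± 5.22 TPM in the same order, and the highest mean stood at 10000 cells. C5ar1 averaged 45.3 ± 13.7, 48.8 ± 7.12, 48.1 ± 5.38 and 43.3 ± 6.35 TPM, with a slope of -0.04 (SE 0.04). C3ar1 averaged 3.41 ± 1.45, 2.76 ± 0.622, 3.38 ± 0.896 and 2.07 ± 0.387 TPM, and at 2500 cells it was 0.61 above 20000 cells on the log2 scale (SE 0.27; unadjusted p = 0.0396, adjusted p = 0.347).

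The liver-made factors at the low end of the range were the most variable. Hc averaged 0.767 ± 0.321, 0.883 ± 0.253, 0.4 ± 0.02 and 1.49 ± 0.940 TPM, whereas its counts gave 1.24 ± 0.647, 3.04 ± 0.596, 1.11 ± 0.268 and 1.91 ± 0.337 CPM with TMM factors. The highest mean was thus at 20000 cells in TPM and at 5000 cells in CPM, and its test for any difference gave an unadjusted p of 0.00745 and an adjusted p of 0.252. C9 averaged 1.14 ± 0.814, 1.86 ± 0.485, 1.38 ± 0.552 and 1.17 ± 0.516 TPM. Cfb averaged 17.3 ± 5.26, 16.8 ± 4.31, 21.02 ± 6.04 and 13.8 ± 2.59 TPM, and Masp1 stayed between 0.363 and 0.647 TPM in its means.

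**Figure D5:**
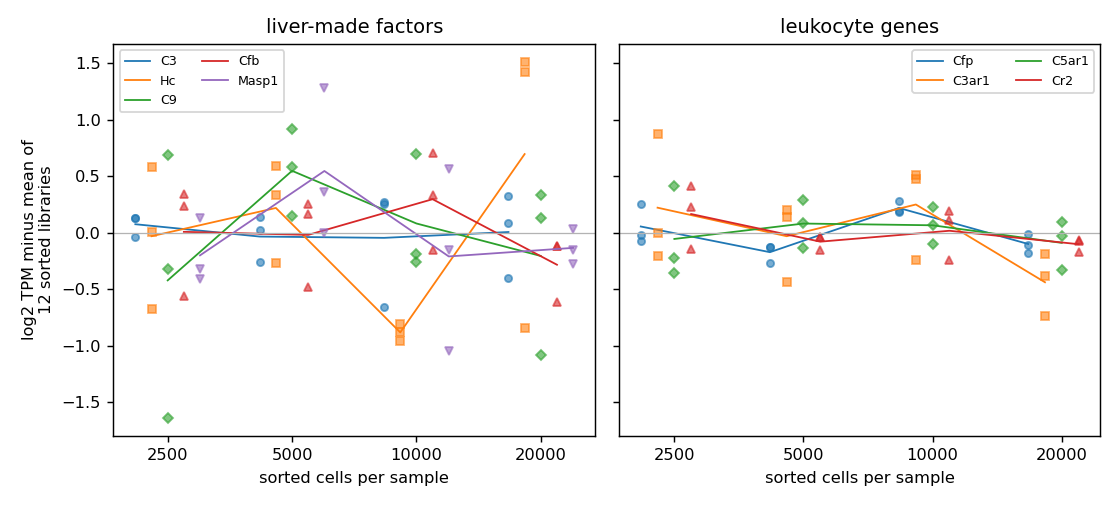
Log2 TPM of each gene minus its mean over the 12 sorted libraries, against the number of sorted cells, for the liver-made factors (left) and the leukocyte genes (right). Points are libraries and lines join the group means, and the points are shifted sideways per gene. Cr2, Cfp and C5ar1 vary little, and Hc, C9 and Masp1 spread the most.

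The genes whose profile over the 14 libraries was most like that of a gene of the set were found among 10761 genes. The measure was the root mean square difference of centred log2(CPM + 0.5), with CPM scaled by TMM factors. Cr2 was closest to Tmem154 (0.108) and Rasgrp1 (0.118), Cfp to Zfp622 (0.0891) and Api5 (0.0942), and C5ar1 to Sytl2 (0.138) and Igkv3-12 (0.139). Tmem154 (0.390 CPM) and Igkv3-12 (0.134 CPM) lay below the added 0.5 in bulk liver, so their likeness depends on that value. C3 was closest to Tm7sf2 (0.191) and Scd1 (0.204), both much lower in sorted cells, with Scd1 at 237 CPM there against 12530 CPM in bulk liver. C3ar1 was closest to Sept8 (0.216) and Rph3al (0.283), a looser likeness than for the other genes. A close gene may share only the size of its difference between sorted cells and bulk liver. These values are descriptions and carry no test.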

How the data were processed

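RNA-seq libraries of sorted leukocytes (12) and bulk liver (2) were analysed. The submitters' processing notes name DESeq2 1.34.0, FastQC 0.11.5, featureCounts 1.5.1, RSEM 1.3.0, STAR 2.5.2b and the build GRCm38, with no role, order, annotation release, filter or strand setting given in the sources used here. The authors deposited raw counts per gene as whole numbers and, separately, TPM values, over 48794 genes. Another table of transformed values was not used here, and 0 columns were left unmapped. Identifiers were matched to symbols for 48348 genes, and coordinates and exon overlaps come from GENCODE M21.

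Counts were tested with edgeR 4.0.16 in R 4.3.3 (quasi-likelihood, robust, TMM factors, filterByExpr by group), adjusted by Benjamini-Hochberg over all genes tested, with a threshold of 0.05. The mean of the 4 sorted groups was set against bulk liver, and a separate fit of the 12 sorted libraries tested the number of cells. The contrast with hepatocyte markers used a two-sided exact permutation test (Python 3.11.15). Alternatives were DESeq2 1.42.0, limma 3.58.1, other scalings, no filter, TPM and leaving out each library. The edgeR fits were also run on simulated counts in which only a small part of the genes changed. That run did not test the scaling between samples as unlike as sorted cells and bulk liver. The genes and lists were chosen with earlier results of these data known. The other complement genes named are the 3 with the highest mean TMM-scaled CPM per role, besides C1qa, C1qc, C2, C4a, C5ar2, Cd46 and Itgam, named after their values were seen. Of each marker list the 2 highest could be named, and others are named as the ends of a range or as markers at 0. The values of 1 soluble regulator are not reported here. Intervals cover counting error only.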

Additional observations from a re-analysis of the deposited data

How the results depend on the processing

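Over all alternatives the 9 genes kept their call and direction in sorted cells against bulk liver, except C3ar1, which was 1.06 with library totals, 1.01 on log2(TPM + 1) and 1.58 on log2(TPM + 0.1). In the same 3 settings C1qa was 0.16, 0.66 and 0.67, C1qb 0.39, 0.92 and 0.93, C1qc 0.53, 1.01 and 1.02, Fcna 0.019, 0.51 and 0.52, Cd46 1.15, 1.23 and 2.29, and C5ar2 1.18, 1.02 and 1.63, all lower or uncalled in the main result. With totals C1qa (adjusted p = 0.191, edgeR) and Fcna (adjusted p = 0.884, edgeR) were not called. Vsig4 was 0.32 and 0.33 on the TPM scales and also lost its call at -0.19 with totals. All genes gave 10737 higher and 3654 lower calls with totals, 11373 and 2895 on log2(TPM + 1), and 11510 and 2855 on log2(TPM + 0.1). Other complement genes higher numbered 9, 12 and 12. Hc relative to hepatocyte markers was 1.65 with TPM, then past the threshold. Cr1l gained a call at 1.26 with totals, 0.24 with no filter, and 1.73 and 1.76 on the TPM scales. The cause of these changes was not tested.

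Leaving out 1 library at a time gave 6245 to 6934 higher and 5692 to 6305 lower genes. The 9 genes stayed at 3 higher and 5 lower, and the other complement genes at 4 and 31. The contrast with hepatocyte markers ranged from 3.897 to 4.03 for C3, 0.98 to 1.15 for Hc (past the threshold without replicate 3 at 2500 cells), 0.03 to 0.18 for C9, 5.21 to 5.36 for Cfb and 2.92 to 3.08 for Masp1. Without either bulk library no call was possible there.

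Counts of genes over the numbers of cells changed with most settings, while the 7 tested genes gave 0 calls in each. The slope called 9 genes higher and 3 lower. It called 15 higher with no filter, 4 and 0 by limma-voom, 86 and 41 by DESeq2, 4 higher with the hepatocyte share as covariate, 0 and 0 on log2(TPM + 1), and 0 to 8 and 0 to 2 without 1 library. Any difference called 44 genes, against 605 with no filter, 28 by limma-voom, 309 by DESeq2, 15 with the covariate, 5 on TPM, and 20 to 104 without 1 library. For 2500 cells (12 higher, 50 lower) the counts were 92 and 305 with no filter, 3 higher by limma-voom, 89 and 178 by DESeq2, 0 and 6 with the covariate, 0 and 7 on TPM, and 0 to 15 and 19 to 53 without 1 library. For 5000 cells (0 and 13) they were 36 and 167, 9 and 80 by DESeq2, 4 lower with the covariate, 1 lower on TPM, and 0 to 1 and 6 to 29. For 10000 cells (2 and 43) they were 19 lower with totals, 32 and 254 with no filter, 0 and 22 by limma-voom, 27 and 170 by DESeq2, 0 and 3 with the covariate, 0 and 2 on TPM, and 0 to 4 and 7 to 110.

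No pairing by replicate number was seen among the sorted libraries, though this check cannot exclude a shared animal or sort. Deviations of same-numbered libraries correlated between -0.216 and 0.217 over 18 pairs, and those of different-numbered libraries between -0.247 and 0.216 over 36. Of 12 libraries, 2 correlated best with their own number. A replicate block gave 0 and 0 for the slope, 4 higher at 10000 cells and 6720 higher and 6231 lower genes against bulk liver, and it changed no call for the 9 genes. Low counts limit Cfb, Masp1, Hc and C9 in sorted cells, and C5ar1, C3ar1 and Cr2 in bulk liver.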
